A study of Homo sapiens with 11 samples.

Results

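The S100 proteins are small calcium-binding proteins built around a pair of EF-hands, the helix-loop-helix motif that holds the ion. Most work as dimers without enzyme activity of their own, and on binding calcium they open a surface for partner proteins such as annexins, cytoskeletal myosin or p53. Most of their genes lie side by side on chromosome band 1q21, next to genes of epidermal differentiation, and several are known for high levels in carcinomas and in motile cells. The macrohistone mH2A1 is a histone H2A variant that carries a large additional domain, and alternative splicing gives the isoforms mH2A1.1 and mH2A1.2.

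The genes described are 9 S100 genes of this cluster out of the 23167 gene identifiers in the count tables, chosen by name: S100A2, S100A3, S100A4, S100A6, S100A10, S100A11, S100A13, S100A14 and S100A16. All were found by Ensembl identifier in GENCODE release 44, and all are protein-coding genes on the minus strand. They were followed in MDA-MB-231, an established triple-negative breast cancer cell line that the labels describe as epithelial cells from a pleural effusion. Total RNA was sequenced from 2 WT cultures, which received transfection reagent and no siRNA, and 2 mH2A1.1 KD cultures, which received 11 nM siRNA against mH2A1.1, all for 3 days. The control therefore held no non-targeting siRNA, and effects of siRNA as such cannot be told apart from those of the KD. ChIP-seq for mH2A1.1 and for total mH2A1 was done in untreated cells, 1 library each, so peaks have no replicate. Nothing in the labels says how the replicate cultures were kept apart, so the spread between them may be technical.

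Total gene counts were 9794674 and 7856892 in WT replicates 1 and 2 and 5584962 and 2309549 in KD replicates 1 and 2. KD replicate 2 stood apart from the others: it had 30 counts on chromosome 21 and 0 on chromosomes 22 and X, and results are therefore given with and without it. The paper also lists it with the lowest share of uniquely mapped reads among the RNA-seq libraries. MACROH2A1, the gene of both mH2A1 isoforms, had 367 and 375 CPM (counts scaled to library size with the TMM method) in WT and 260 and 285 in KD, and the gene count does not separate the isoforms. Its log2 fold change was -0.44 (SE 0.135; edgeR adjusted p = 0.359, Benjamini-Hochberg), and DESeq2 gave -0.46 with an adjusted p of 0.00311, a change of less than 1.5-fold. Of 7 epithelial markers, KRT8, KRT18 and KRT19 were called higher in KD by DESeq2, KRT14 was at 0, and their summed level was 1070 and 1187 CPM in WT against 1794 and 2711 in KD. Of the other epithelial markers, EPCAM had a log2 fold change of 0.12 and CDH1, with at most 22 counts, one of -1.26. The 4 mesenchymal markers summed to 3104 and 3242 CPM in WT against 3721 and 5603 in KD, of which VIM was the greatest part, while ZEB1 was at 157 and 144 CPM in WT and lower in KD, at 127 and 114, and CDH2 had a log2 fold change of -0.0084. Both hormone receptor genes, ESR1 and PGR, were at 0. COL1A1 and PECAM1, markers of fibroblasts and endothelium, summed to 12.1 and 11.5 CPM in WT against 22.6 and 35.5 in KD, where DESeq2 called COL1A1 higher. In bulk RNA a change per cell cannot be told apart from a change in the share of cells of a kind, and the part of these markers in the results below was not tested.

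The members fell into 2 blocks. In GRCh38, S100A10 and S100A11 lie within chr1:151982915-152047907, a stretch of 64993 bp. The other 7 lie within chr1:153534599-153631360, a stretch of 96762 bp, in the order S100A6, S100A4, S100A3, S100A2, S100A16, S100A14 and S100A13. The 1486691 bp between the blocks hold 50 genes of the count tables, S100 genes and fused S100 genes included, of which only FLG and FLG-AS1 had at least 10 counts in a library. This interval holds the late cornified envelope and small proline-rich genes, which build the outer layer of the skin.

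Promoters are shown for the 5 members whose KD libraries were both above both WT libraries, so that their sequence can be set beside the peaks and levels described next. Each run is the 250 bases before a RefSeq transcription start (GRCh38.p14, minus strand, 5′ to 3′), and capitals mark matches on either strand to the letters TATAAA for a TATA box, to TGANTCA for an AP-1 motif, to GGGCGG for a GC box or to CCAAT for a CCAAT box.
S100A11, chr1:152037005-152037254: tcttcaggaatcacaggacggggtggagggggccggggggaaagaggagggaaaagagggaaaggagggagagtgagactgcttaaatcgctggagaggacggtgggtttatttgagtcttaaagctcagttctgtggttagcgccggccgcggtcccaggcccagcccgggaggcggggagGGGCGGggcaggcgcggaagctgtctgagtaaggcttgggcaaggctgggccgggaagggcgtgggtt
S100A6, chr1:153535992-153536241: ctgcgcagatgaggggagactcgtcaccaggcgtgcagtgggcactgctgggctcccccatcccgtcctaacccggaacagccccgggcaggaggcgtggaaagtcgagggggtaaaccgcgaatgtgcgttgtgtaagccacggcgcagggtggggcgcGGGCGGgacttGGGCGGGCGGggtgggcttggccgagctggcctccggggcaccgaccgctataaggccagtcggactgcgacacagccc
S100A10, chr1:151993860-151994109: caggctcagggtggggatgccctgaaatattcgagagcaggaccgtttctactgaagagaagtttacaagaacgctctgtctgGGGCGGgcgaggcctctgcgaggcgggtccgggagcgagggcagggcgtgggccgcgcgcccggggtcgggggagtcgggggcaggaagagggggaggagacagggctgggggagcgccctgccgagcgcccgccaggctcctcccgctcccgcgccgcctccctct
S100A4, chr1:153545807-153546056: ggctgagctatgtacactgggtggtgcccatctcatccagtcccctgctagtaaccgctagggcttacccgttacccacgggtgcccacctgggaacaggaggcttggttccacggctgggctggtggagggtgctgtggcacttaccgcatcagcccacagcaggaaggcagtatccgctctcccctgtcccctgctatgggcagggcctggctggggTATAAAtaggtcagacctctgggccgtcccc
S100A16, chr1:153609356-153609605: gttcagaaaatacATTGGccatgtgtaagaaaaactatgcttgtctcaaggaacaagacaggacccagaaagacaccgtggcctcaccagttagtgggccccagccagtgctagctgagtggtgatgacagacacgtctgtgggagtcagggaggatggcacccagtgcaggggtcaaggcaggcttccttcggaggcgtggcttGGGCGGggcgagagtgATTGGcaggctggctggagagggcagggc
The S100A6 promoter held 3 GC boxes, which begin 90, 79 and 75 bases before the start, the last 2 of them overlapping. S100A11 had 1 GC box beginning 68 bases before its start, S100A10 had 1 at 167 bases, and the printed promoter of S100A16 had 1 at 45 bases together with 2 CCAAT matches. RefSeq lists a second start for S100A16 near the outer end of the gene, whose promoter, chr1:153613138-153613387, held no match to any of the 4 motifs. S100A4 had no GC box but a TATA match 31 bases before its start. RefSeq listed 13 promoters for the 9 members. A GC box was in 6 of these 13, beside 42.6% of all 35116 RefSeq promoters of this length, and a CCAAT match in 3 of 13, beside 32.0%. A TATA match was in 2 of 13, of S100A4 and S100A13, beside 10.7% of all, and an AP-1 match in 2 of 13, of S100A2 and S100A3, beside 6.57%. These matches describe letters only and were not tested for binding.

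In WT cells, the members covered much of the range of expression. On the per-length scale, as RPKM (reads per kilobase of exon, scaled to the library's total count without TMM), S100A6 was at 1327 ± 144 (SD, n = 2), rank 2 among 18108 protein-coding genes. S100A11 followed at 664 ± 25.0 and rank 10, and S100A10 at 341 ± 11.4 and rank 35. S100A4 at 158 ± 2.04 and S100A16 at 134 ± 16 formed a middle pair, at ranks 98 and 136. S100A2 was at 28.5 ± 0.194 RPKM and S100A3 at 19.9 ± 2.51. S100A13 and S100A14 were near the lower end, at 0.679 ± 0.148 and 0.17 ± 0.0991 RPKM. The 2 WT values of each gene did not overlap those of its neighbours in this order, but the order of the middle genes depends on the length used: with the length from gene start to gene end, S100A16 came ahead of S100A10 and S100A11. Together the 9 genes held 0.237% and 0.265% of all counts in WT and 0.314% and 0.532% in KD, and S100A6 alone held 0.119% in WT replicate 1 and 0.325% in KD replicate 2. The total of KD replicate 2 lacks chromosomes 22 and X and nearly all of 21, which by itself raises its shares somewhat. The plot of CPM by library shows these levels.

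**Figure D1:**
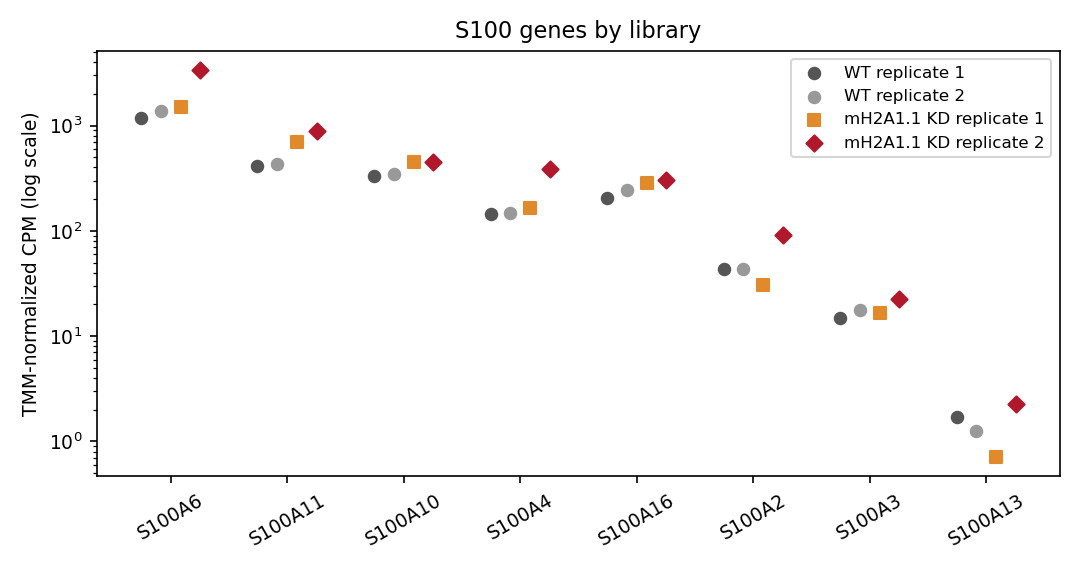
TMM-normalized CPM (log axis) of 8 members in each of the 4 RNA-seq libraries, 1 point per library; S100A14, at 0 counts in KD replicate 2, is left out. The KD points of S100A6, S100A11, S100A10, S100A4 and S100A16 are all above the WT points, and those of S100A2 and S100A13 lie on both sides of them.

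The comparison of mH2A1.1 KD with WT asks which of these genes differed in level between the 2 groups. A gene was called when it differed by more than 1.5-fold with a Benjamini-Hochberg adjusted p below 0.1. Both KD libraries were above both WT libraries in 5 of the 8 members tested, against 30.1% of all genes tested. In no member were both below, against 3848 of the 11723 genes tested. S100A11 was the member with the firmest difference, S100A10 and S100A16 had smaller differences of like size in both KD libraries, S100A6 and S100A4 were high mainly in KD replicate 2, and S100A2 moved opposite ways in the 2 KD libraries. edgeR called 0 of the 8 (background 0% of 11723 genes in either direction, with 526 higher and 704 lower past the fold limit at an unadjusted p under 0.05), while S100A11 was the 1 member past both that p and the fold limit. DESeq2 called 1 of the 7 members to which it gave an adjusted p, S100A11, against 4.43% of 9262 genes called higher. Without KD replicate 2, edgeR called S100A11 higher and no other member, against 2.6% of 12135 genes called higher and 5.36% called lower. Without KD replicate 1 it called 4 of the 8 members higher, S100A11, S100A6, S100A4 and S100A2, against 19.1% of 12235 genes. The median log2 fold change of the 8 members was 0.45, with 7 above 0. That of all 11723 genes tested was -0.05, with 5523 above 0.

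The first group of members are partners of annexins, proteins that bind membranes in a calcium-dependent way. S100A11 (ENSG00000163191, chr1:152032506-152047907), known as calgizzarin, binds annexins and takes part in the repair of the plasma membrane. Its reads numbered 4107 and 3475 in WT against 3880 and 1994 in KD, or 412, 435, 697 and 896 CPM. Both KD libraries were clearly above both WT libraries, and the WT libraries were close to each other. The mean was 424 ± 16.1 CPM in WT and 796 ± 141 in KD (SD, n = 2), a log2 fold change of 0.91 (SE 0.190) with an edgeR adjusted p of 0.359, and DESeq2 gave 0.90 with an adjusted p of 0.00029. Without KD replicate 2 it was 0.72 (edgeR adjusted p = 1.1e-12), and without KD replicate 1 it was 1.07 (edgeR adjusted p = 4.04e-26). In these 2 fits KD is 1 library, whose spread is taken from WT, which makes the p-values small. With a correction for trends with gene length and GC content, whether the DESeq2 call holds depends on the genes the trend is fitted on. Fitted on the genes past the filter on low counts, the correction ended the call, with a log2 fold change of 0.22 (DESeq2 adjusted p = 0.60), and 0.23 in edgeR (adjusted p = 0.560). Fitted on all genes with counts, it gave 0.68 and S100A11 stayed called (DESeq2 adjusted p = 4.35e-35), the 1 member among the 4.72% of genes then called higher. The values of the correction below are from the first of these fits, unless the trend on all genes with counts is named. With the trend of genes past the filter and without KD replicate 2 it was 0.48 (edgeR adjusted p = 1.12e-08), under the fold limit.

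S100A10 (ENSG00000197747, chr1:151982915-151993859), also known as p11, has lost calcium binding and forms a tetramer with annexin A2 at the cell membrane. It had 3305 and 2779 counts in WT and 2516 and 997 in KD, or 332, 348, 452 and 448 CPM. The KD libraries were almost equal to each other and above both WT libraries. The mean was 340 ± 11.4 CPM in WT and 449.8 ± 2.77 in KD (SD, n = 2), a log2 fold change of 0.40 (SE 0.131; edgeR adjusted p = 0.359). DESeq2 gave 0.39 with an adjusted p of 0.00864, without reaching the fold limit. Over all 16 alternatives the log2 fold change lay between 0.08 and 0.44. The low values were under the length and GC correction with the trend of genes past the filter. With the trend on all genes with counts, DESeq2 gave 0.40, under the fold limit.

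S100A6 (ENSG00000197956, chr1:153534599-153536244), known as calcyclin, also binds annexins and is associated with proliferating cells. It had 11653 and 10902 counts in WT and 8347 and 7498 in KD, or 1170, 1365, 1499 and 3368 CPM. KD replicate 1 was just above the WT libraries, and KD replicate 2 was far above the other 3. The mean was 1267 ± 138 CPM in WT and 2433 ± 1322 in KD (SD, n = 2), a log2 fold change of 0.94 (SE 0.452; edgeR adjusted p = 0.363; DESeq2 0.92 with adjusted p = 0.167). It was 0.25 without KD replicate 2 (edgeR adjusted p = 0.0333, under the fold limit) and 1.40 without KD replicate 1, where it was called. When the genes of chromosomes 21, 22 and X were left out, DESeq2 called S100A6 higher, with an adjusted p of 0.0607, as it did 5.52% of 7765 genes. With the length and GC correction the edgeR value was 0.07, and -0.011 when KD replicate 2 was also left out. Fitted on all genes with counts, the correction gave 0.46 in DESeq2 (DESeq2 adjusted p = 0.201).

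Among the other members, S100A4 and S100A2 are known for partners in the cytoskeleton and the nucleus. S100A4 (ENSG00000196154, chr1:153543613-153550136), or metastasin, binds non-muscle myosin IIA and is known for promoting cell motility. It had 1453 and 1187 counts in WT and 915 and 860 in KD, or 146, 149, 164 and 386 CPM. As for S100A6, KD replicate 1 was near the WT libraries and KD replicate 2 far above them. The log2 fold change was 0.90 (SE 0.453; edgeR adjusted p = 0.367; DESeq2 0.88 with adjusted p = 0.201), from 147 ± 1.95 CPM in WT to 275 ± 157 in KD (SD, n = 2). Without KD replicate 2 it was 0.16 (edgeR adjusted p = 0.287) and without KD replicate 1 it was 1.38, so its size rests on that library. DESeq2 called it higher when chromosomes 21, 22 and X were left out (adjusted p = 0.0851). The length and GC correction gave 0.13 in edgeR, and -0.075 without KD replicate 2. Its trend on all genes with counts gave 0.53 in DESeq2 (DESeq2 adjusted p = 0.287).

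S100A2 (ENSG00000196754, chr1:153561108-153567890), mostly a nuclear protein that binds p53, had 433 and 344 counts in WT and 169 and 204 in KD. These were 43.5 and 43.1 CPM in WT and 30.3 and 91.6 in KD. KD replicate 1 was below both WT libraries and KD replicate 2 above both, so the groups overlap. The log2 fold change of 0.49 (SE 0.575; edgeR adjusted p = 0.645) became -0.51 without KD replicate 2 (edgeR adjusted p = 0.00898, under the fold limit) and 1.07 without KD replicate 1, where it was called, as were 19.1% of 12235 genes in the same direction. The length and GC correction gave -0.18 in edgeR, and -0.71 without KD replicate 2 (edgeR adjusted p = 6.33e-06, called lower, as were 3.52% of 12135 genes). With the trend on all genes with counts, DESeq2 gave 0.06. No direction can be given for S100A2.

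S100A16 (ENSG00000188643, chr1:153606886-153613145), a widely expressed member, had 2046 and 1944 counts in WT and 1589 and 673 in KD, or 205, 243, 285 and 302 CPM. Both KD libraries were above both WT libraries by a margin similar to the gap between the WT libraries. The log2 fold change was 0.39 (SE 0.155; edgeR adjusted p = 0.359; DESeq2 0.38 with adjusted p = 0.128), 0.35 without KD replicate 2 (edgeR adjusted p = 0.0038, under the fold limit) and -0.15 in edgeR with the length and GC correction. Fitted on all genes with counts, the correction gave S100A16 0.03 in DESeq2. S100A3 (ENSG00000188015, chr1:153547329-153549258), a cysteine-rich protein of the hair cuticle, had 149, 143, 92 and 50 counts, or 15 and 17.9 CPM in WT and 16.5 and 22.5 in KD. The groups overlap, and its log2 fold change of 0.23 (SE 0.249; edgeR adjusted p = 0.611) was 0.023 without KD replicate 2, 0.45 without KD replicate 1 and -0.50 with the length and GC correction.

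S100A13 and S100A14 were too low to compare at this depth. S100A13 (ENSG00000189171, chr1:153618787-153631360), which assists the export of FGF1, had 17 and 10 counts in WT and 4 and 5 in KD, or 1.71, 1.25, 0.718 and 2.25 CPM, and its log2 fold change of -0.31 (SE 0.644; edgeR adjusted p = 0.788) changed sign with 1 library left out. Its exons share 10.6% of their bases with S100A1 on the other strand, a gene at 0 counts in every library. The strand setting of the counting is known only as the default, so how reads in the shared bases were counted is uncertain. S100A14 (ENSG00000189334, chr1:153614255-153616986), a member of epithelia with an altered calcium site, had 3 and 1 counts in WT and 3 and 0 in KD. The 95% Poisson intervals of these counts reach up to 0.895 and 0.709 CPM in WT and 1.57 and 1.60 in KD, and cover counting error only.

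**Figure D2:**
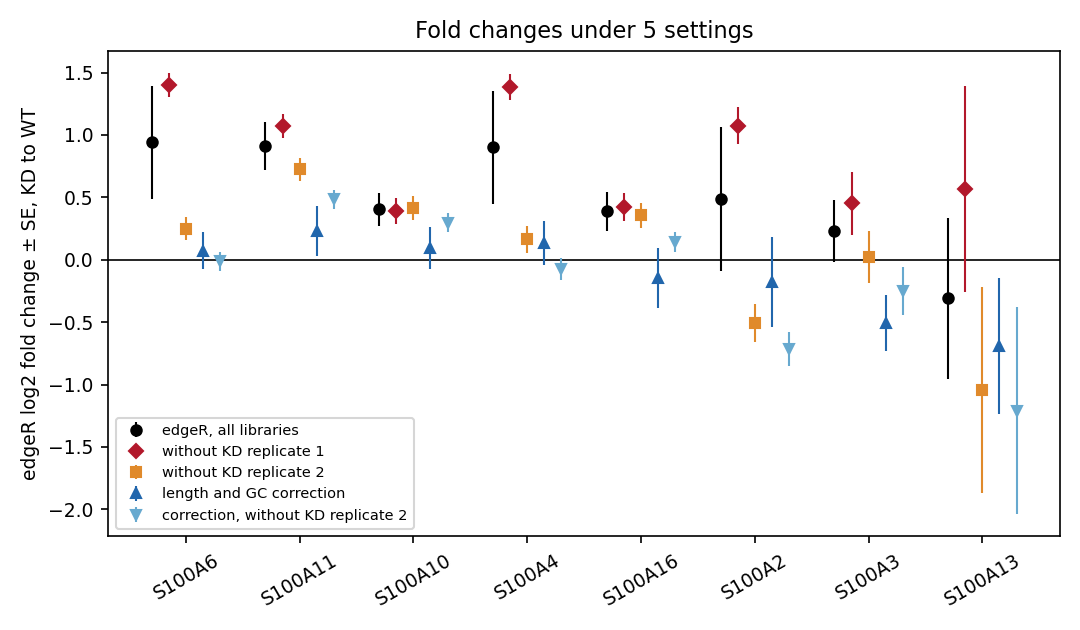
edgeR log2 fold change of KD against WT (points) with its SE (bars) for 8 members under 5 settings: all libraries, without KD replicate 1, without KD replicate 2, with the length and GC correction, and with the correction but without KD replicate 2. S100A11 and S100A10 stay above 0 in all 5 settings, S100A6 and S100A4 fall to 0.25 and 0.16 without KD replicate 2, and S100A2 is at 1.07 without KD replicate 1 and at -0.51 without KD replicate 2.

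The members are short, with a median exon length of 1012 bp against 5597 bp for all genes tested, and GC-rich, with 54.7% against 47.2%. Other genes as short as S100A16 (exon length up to 1701 bp, 557 genes) had a median log2 fold change of 0.31, with 66.1% above 0, and 0.16 without KD replicate 2. The members were also densely read: S100A6 had 12 reads per exon base in WT replicate 1, S100A11 had 6.33 and S100A10 had 3.27. The authors removed duplicate reads before counting. The 39 other genes with at least 3 reads per exon base in that library had a median log2 fold change of 0.46, with 76.9% above 0, and 0.23 without KD replicate 2. For S100A6, S100A11, S100A4 and S100A16, the order of CPM over the 4 libraries was the reverse of the order of their total counts. The part of length, read density and depth in the members' values was not tested beyond the correction given above.

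The other genes of the family were mostly silent in this line. Of 12 further S100 genes, 8 were at 0 in every library, including S100A8, S100A9 and S100A12, the calgranulins of myeloid cells. S100A5, which lies between S100A6 and S100A4, was the only one with at least 10 counts in a library, at 4.42 and 5.38 CPM in WT and 3.59 and 10.8 in KD, the same split between KD libraries as in S100A2. Of 7 epidermal genes whose proteins carry a fused S100 domain, 4 were at 0 and only FLG, which encodes filaggrin, had at least 10 counts. FLG was at 68.1 and 66.7 CPM in WT and at 91.2 and 148 in KD, so both KD libraries were above WT, with a log2 fold change of 0.82 (edgeR adjusted p = 0.359; called higher by DESeq2, adjusted p = 0.0844). FLG overlaps FLG-AS1 on the opposite strand, which had a log2 fold change of -0.48, and because the strand setting of the counting is known only as the default, reads of one may have been assigned to the other and both values are uncertain. Of 50 further genes between the blocks and within 250000 bp of them, S100 genes and FLG with the other fused genes left out, 39 were at 0, 8 were tested with a median log2 fold change of 0.07, and none was called by edgeR or DESeq2. In edgeR, 0 of these 8 had an unadjusted p under 0.05.

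Of 17 partners of S100 proteins, 16 were in the tables and tested. Both KD libraries were above WT in 5 and below in 5 of these 16, near the 3533 and 3848 of all 11723 genes tested. The median log2 fold change of the partners was -0.13. ANXA2, the partner of S100A10, had 1326 and 1381 CPM in WT and 1687 and 2347 in KD, a log2 fold change of 0.58 (SE 0.235; edgeR adjusted p = 0.359; DESeq2 0.56 with adjusted p = 0.0979). ANXA1, a partner of S100A11, was at 677 ± 42.9 CPM in WT and 595 ± 82.8 in KD (SD, n = 2), and the groups overlap. MYH9, the heavy chain of the myosin that S100A4 binds, lies on chromosome 22 and had no counts in KD replicate 2, so it could not be compared in that library. It had 2256 and 2469 CPM in WT and 3069 in KD replicate 1. Its log2 fold change of -0.62 includes the empty library and is part of the median above. MDM2, a regulator of p53, was the partner DESeq2 called, at 166 and 150 CPM in WT and 81.2 and 55.7 in KD, a log2 fold change of -1.21 (SE 0.240; edgeR adjusted p = 0.359; DESeq2 -1.20 with adjusted p = 0.00121).

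Peaks of mH2A1.1 lay over most members in WT cells. From the first to the last base of the members (1648446 bp), 26 mH2A1.1 peaks covered 13% of the sequence and 32 total mH2A1 peaks covered 11.1%, near the 12.8% and 10.7% of chromosome 1 as a whole. The cover was uneven: mH2A1.1 peaks took 59.7% of the stretch from S100A6 to S100A13 and 37.1% of that from S100A10 to S100A11, against 8.92% between them. For total mH2A1 these values were 40.3%, 27.7% and 8.48%. Peaks were called in steps of 3000 bp and their deposited scores were all 0, so a peak's height cannot be given and its edges are no finer than that step.

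A single mH2A1.1 peak of 48000 bp, chr1:153534001-153582000, covered S100A6, S100A5, S100A4, S100A3 and S100A2 whole. Within it, total mH2A1 peaks lay at chr1:153537001-153558000, over S100A4 and S100A3 whole, and at chr1:153570001-153582000. The S100A6 start was 757 bp and the S100A2 start 2111 bp from the nearest of these. S100A10 had an mH2A1.1 peak of 12000 bp over its start, chr1:151992001-152004000, which took 17.0% of the gene and held the promoter printed above. Another mH2A1.1 peak, chr1:151980001-151983000, just reached the far end of the gene. Total mH2A1 covered none of the gene. The peak in S100A11, chr1:152037001-152043000, held the printed promoter and took 39.0% of the gene in GENCODE. Its edge fell at the RefSeq start, chr1:152037004, so almost all of it lay upstream of the RefSeq transcript. No peak of either antibody lay further along that transcript. The outermost GENCODE start, 10903 bp upstream of the RefSeq start, had no mH2A1.1 peak. Total mH2A1 covered 19.5% of S100A11, in the adjoining peak chr1:152043001-152046000, also upstream of the RefSeq start. The 2 peaks share no base, so S100A11 had no peak common to both antibodies.

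The lowly expressed S100A14 had an mH2A1.1 peak over 72.7% of the gene and no total mH2A1, and S100A13 had one over 34.7%, with total mH2A1 over 23.9%. S100A16 was the member without any: mH2A1.1 covered 0% of it, the nearest peak was 1856 bp from its start, and neither of its 2 RefSeq promoters overlapped a peak. Within 500 bp of the outermost start, 7 of 9 members had an mH2A1.1 peak, against 37.8% of 23061 genes and 46.2% of the tested genes, but 4 of the 7 share the peak of 48000 bp and are not independent. For total mH2A1 it was 2 of 9, S100A3 and S100A4, against 21.2% of the genes, and for mH2A1.1 peaks that overlap a total mH2A1 peak by at least 1 bp it was 6 of 9, against 23.8%. Peaks of mH2A1.1 were thus listed both over S100A6, at 1267 ± 138 CPM in WT, and over S100A14, at 0.213 ± 0.124 CPM (SD, n = 2). The S100A14 peak, 3000 bp wide, shared no base with a total mH2A1 peak. All deposited peaks were used here unless stated, whereas the paper kept only mH2A1.1 peaks common to both antibodies, which leaves this peak out.

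**Figure D3:**
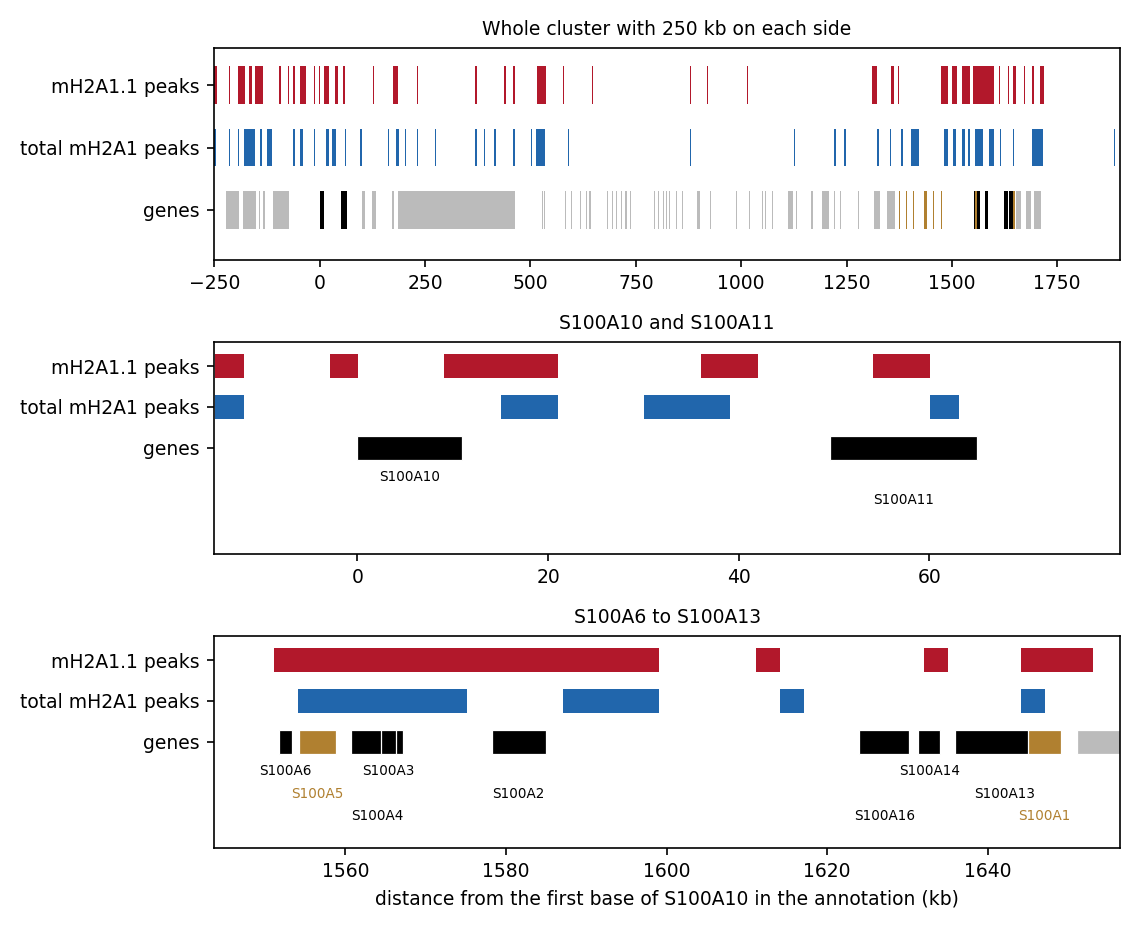
Peaks of mH2A1.1 (red) and total mH2A1 (blue) in WT cells over the cluster, and genes of the count tables (members black, other S100 genes brown, others grey), by distance in kb from the first base of S100A10; 1 ChIP-seq library each. The upper panel shows the whole cluster, where peaks are sparse between the 2 blocks, and the lower panels show each block, with the 48000 bp mH2A1.1 peak over S100A6 to S100A2 and no peak over S100A16.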

How the data were processed

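The authors aligned RNA-seq reads (TruSeq stranded total RNA) to GRCh38 with STAR 2.5.1, removed low-quality and duplicate reads, and counted them with htseq-count at default parameters. The deposited values are raw counts per gene, and the annotation is not given in the sources used here. The deposited peak lists come from the authors' enrichment calls on 1 library each against input, and their score column is 0 throughout. The input and promoter capture Hi-C samples were not analysed here.

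Counts were fitted over all genes with edgeR 4.0.16 in R 4.3.3 (TMM, filterByExpr, quasi-likelihood test, Benjamini-Hochberg adjustment), and with DESeq2 1.42.0 as an alternative. The scripts were tested on simulated data. Of 23167 identifiers, 23061 were matched to GENCODE release 44, and RPKM used its summed exon length. The length and GC correction passed lowess trends (span 0.3) of genes past the filter as offsets. The trend was restricted to these genes after values had been seen, which decides whether S100A11 stays called in DESeq2. Other alternatives were size factors, filters, left-out libraries, a replicate block and other peak rules.

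All 9 members are named, with MACROH2A1, related genes with at least 10 counts in a library, and partners or neighbours with a mean of at least 5 CPM, of which examples are given. The members and lists were chosen with earlier results of these data known.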

Additional observations from a re-analysis of the deposited data

How the results depend on the processing

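edgeR called 0 genes and 0 members with all libraries, and also with DESeq2's type of size factors, without the filter on low counts, with at least 10 counts in every library, without chromosomes 21, 22 and X, and with the length and GC correction. With 1 library left out in turn, it called between 0 and 5574 genes and between 0 and 4 members. Without KD replicate 1 it called 5574 of 12235 genes with S100A11, S100A6, S100A4 and S100A2, and without KD replicate 2 it called 966 genes and S100A11. DESeq2 called 945 of the 9262 genes with an adjusted p, and 1 member. Without chromosomes 21, 22 and X it called 874 of 7765 genes, and 3 members. Under the length and GC correction it called 628 of 9575 genes, and no member. The restriction of that correction's trend to genes past the filter was itself made after values had been seen. With the trend fitted on all genes with counts, a fit also listed after seeing the data, DESeq2 called 646 of 9262 genes with 1 member, S100A11. The correction without KD replicate 2, also chosen after seeing the data, gave 708 genes in edgeR with 1 member, S100A2. Same-numbered WT and KD libraries deviated together at r = 0.044 over the tested genes and at r = 0.252 without chromosomes 21, 22 and X. With only 2 pairs and no label that says what a number marks, the numbers were not taken to pair the cultures. With the replicate block edgeR called 0 genes and 0 members.

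The log2 fold change of S100A2 turned to -0.51 without KD replicate 2, and under the length and GC correction to -0.18 in edgeR, -0.25 with the replicate block, -0.20 in DESeq2 and -0.71 without KD replicate 2. Under the same 4 corrected fits S100A3 turned to -0.50, -0.53, -0.51 and -0.25, and in DESeq2 with the trend on all genes with counts to -0.11. S100A16 turned to -0.15, -0.18 and -0.16 in the first 3 of them. S100A4 turned to -0.075 and S100A6 to -0.011 in the corrected fit without KD replicate 2. S100A13 turned to 0.057 without WT replicate 1 and 0.57 without KD replicate 1, and with 1 library left out lay between -1.04 and 0.57, as S100A2 lay between -0.51 and 1.07. S100A11 and S100A10 kept their direction in all 16 alternatives. The cause of these changes was not tested.

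Gene length from start to end moved 5 members in the order of levels. The share of the members' span covered by mH2A1.1 peaks was 13%, 9.91% with common peaks only and 14.4% with 100000 bp on each side. The count of members with an mH2A1.1 peak at the start stayed between 5 and 8. A stricter peak score could not be tried because all scores are 0.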
